A study of Mus musculus with 12 samples.

Results

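DNA methylation was examined at 9 genes of red blood cell formation in a mouse model of acute myeloid leukaemia. The genes are the transcription factor genes Klf1, Gfi1b and Nfe2, the receptor genes Epor and Tfrc, and the red cell membrane genes Rhd, Rhag, Slc4a1 and Ermap. They were chosen by the difference of CD11b-positive from PBS cells in earlier results of the same libraries, which showed gains of methylation at several of them. For each gene, the body and 5 kb outside each end formed a window, and a CpG entered when it had at least 10 methylation calls in each of 12 libraries (a common CpG). Of the 9 genes, 8 had common CpGs, 350 in all, out of 1052856 common CpGs on the autosomes and X and 17323 protein-coding gene windows with at least 3 of them. Rhag, the partner of Rhd in the Rh membrane complex, had 121 listed CpGs in its window but none with even 5 calls in every library, and has no value here.

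The cells were CMM cells, a GFP-positive mouse leukaemia line that carries the inv(16) fusion, injected intravenously into C57BL/6 mice. Treatment began at about 1% GFP-positive cells in blood and consisted of 3 intravenous injections, one every other day, of PBS or of CpG-STAT3dODN, a CpG oligonucleotide linked to a decoy of the STAT3 binding site. Spleens were collected 1 day after the last injection, and DNA was profiled by reduced representation bisulfite sequencing, which reads methylation mostly in CpG-dense DNA. The PBS group held GFP-positive cells that were not divided by the myeloid surface marker CD11b, and the treated mice gave GFP-positive CD11b-negative and GFP-positive CD11b-positive cells, with 4 libraries in each of the 3 groups. Treatment and selection for CD11b therefore cannot be told apart in any comparison with PBS. Whether each library is a different animal is not stated in the labels, and p-values cover only the variation among the libraries at hand, which may be technical.

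Red cell precursors arise from progenitors that also give megakaryocytes. Klf1 and Nfe2 act with GATA factors to switch on globin, haem and membrane genes, Gfi1b is a repressor that silences other genes on the way to red cells and megakaryocytes, Epor carries the erythropoietin signal for survival and Tfrc imports iron bound to transferrin. Methylation of CpGs near a start site is commonly associated with low transcription, and promoters inside dense CpG islands are usually free of methylation whether or not the gene is used. No RNA was measured in these files. In DNA pooled from many cells, full methylation in part of the cells and partial methylation in all of them cannot be told apart.

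The libraries held 112671408 to 157223205 calls, with a median of 84 calls per common CpG and library. Both treated libraries numbered 2 stood apart from the others of their groups in mean methylation over the common CpGs, at 35.5% for CD11b-negative 2 (the others 32.1% to 32.5%) and 35.9% for CD11b-positive 2 (the others 34.2% to 34.5%). They also had the highest Y share, defined as calls on 8 single-copy Y-chromosome genes per 1000000 autosomal calls, at 39.2 and 40.04. The other CD11b-negative libraries had Y shares of 8.28 to 12.2, the PBS libraries 5.33 to 18.1 and the other CD11b-positive libraries 23.2 to 24.2. The Y share of CD11b-positive exceeded that of PBS by 17.2 (exact two-sided permutation p = 0.0286, adjusted p = 0.0857, n = 4 and 4), and the difference between CD11b-negative and PBS was -0.0792 without CD11b-negative 2. The libraries numbered 2 also listed more CpGs than any other, 6514712 and 6839766 against 2832050 to 5723080, and had the lowest mean methylation on the X chromosome, 47.6% and 47.97% against 53.4% to 57.2%. The sex of the line and of the host mice is not stated in the labels. By group, all common CpGs averaged 31.4% ± 0.292 in PBS, 33.1% ± 1.59 in CD11b-negative and 34.7% ± 0.810 in CD11b-positive libraries. The treated groups exceeded PBS by 1.73 and 3.32 points (exact two-sided permutation p = 0.0286, adjusted p = 0.0429 for each). CD11b-positive exceeded CD11b-negative by 1.59 points (same test, adjusted p = 0.114). The PBS libraries ran from 31.0% to 31.7%, below every treated library. Below, the 7 marked stretches and the counts for CD11b-positive against CD11b-negative are also given without CD11b-negative 2, and the part of the Y share was tested only as a term in the fits.

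The promoters of Rhd, Epor and Tfrc are shown because they hold measured CpGs and differ in what those CpGs showed. The sequences are from RefSeq on GRCm38.p6, the same build as mm10, and run 5′ to 3′ on the gene's strand from 250 bases before to 50 after an annotated start. They lie at chr4:134864286-134864585 on the plus strand for Rhd, chr9:21963527-21963826 on the minus strand for Epor, and chr16:32608872-32609171 on the plus strand for the second of the 2 Tfrc starts in that table. Capitals mark CpGs with at least 10 calls in all 12 libraries.
Rhd: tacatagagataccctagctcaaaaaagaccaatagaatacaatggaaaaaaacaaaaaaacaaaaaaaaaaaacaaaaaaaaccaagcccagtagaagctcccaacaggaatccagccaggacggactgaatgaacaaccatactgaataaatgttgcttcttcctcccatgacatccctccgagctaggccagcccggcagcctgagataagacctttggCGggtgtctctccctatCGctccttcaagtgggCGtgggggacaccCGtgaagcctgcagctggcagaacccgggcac
Epor: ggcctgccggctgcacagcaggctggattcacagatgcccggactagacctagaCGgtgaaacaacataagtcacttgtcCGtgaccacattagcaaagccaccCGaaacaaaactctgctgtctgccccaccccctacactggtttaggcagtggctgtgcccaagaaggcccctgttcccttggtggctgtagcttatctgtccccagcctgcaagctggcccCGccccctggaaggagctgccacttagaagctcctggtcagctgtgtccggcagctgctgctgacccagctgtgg
Tfrc: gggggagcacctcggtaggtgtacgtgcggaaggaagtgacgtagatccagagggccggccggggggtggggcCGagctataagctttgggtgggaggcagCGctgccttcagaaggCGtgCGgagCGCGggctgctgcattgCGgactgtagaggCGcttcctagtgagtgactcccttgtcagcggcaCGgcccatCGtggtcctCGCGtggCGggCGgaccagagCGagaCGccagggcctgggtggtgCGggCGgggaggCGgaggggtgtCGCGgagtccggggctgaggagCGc
Of the 8 CpGs in the Rhd stretch, 4 were measured, and all 4 were low in PBS and raised in CD11b-positive cells. Of the 7 in the Epor stretch, 4 were measured and 3 met that description. The Tfrc stretch has 30 CpGs, of which 22 were measured, and none met it.

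A CpG is called marked here when its PBS mean was under 20% and its CD11b-positive mean was at least 20 percentage points higher. Of the 350 CpGs, 223 were low in PBS and 26 were marked, where gain below means the CD11b-positive mean minus the PBS mean. The marked CpGs were 7.43% of the 350, against 2.34% of all common CpGs (24678 CpGs). Among CpGs low in PBS the share was 11.7% in the erythroid genes and 4.18% over all 590249. These shares describe the choice of genes and carry no test, since the same contrast chose them. The marked CpGs were 9 in Rhd, 7 in Ermap, 5 in Gfi1b, 4 in Epor and 1 in Slc4a1, and Nfe2, Klf1 and Tfrc had none. They fell into 7 stretches, a stretch being marked CpGs within 1000 bp of one another.

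Near the limits of the rule, the marked CpG with the smallest gain was in the body of Rhd, with a gain of 21.2 points. The unmarked CpGs low in PBS with the largest gains were both at Epor, with gains of 19.9 and 18.3 points. The highest PBS mean of a marked CpG was 17.6% in Rhd, and the lowest PBS mean of a CpG that gained as much without being low was 20.05% in Slc4a1.

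**Figure D1:**
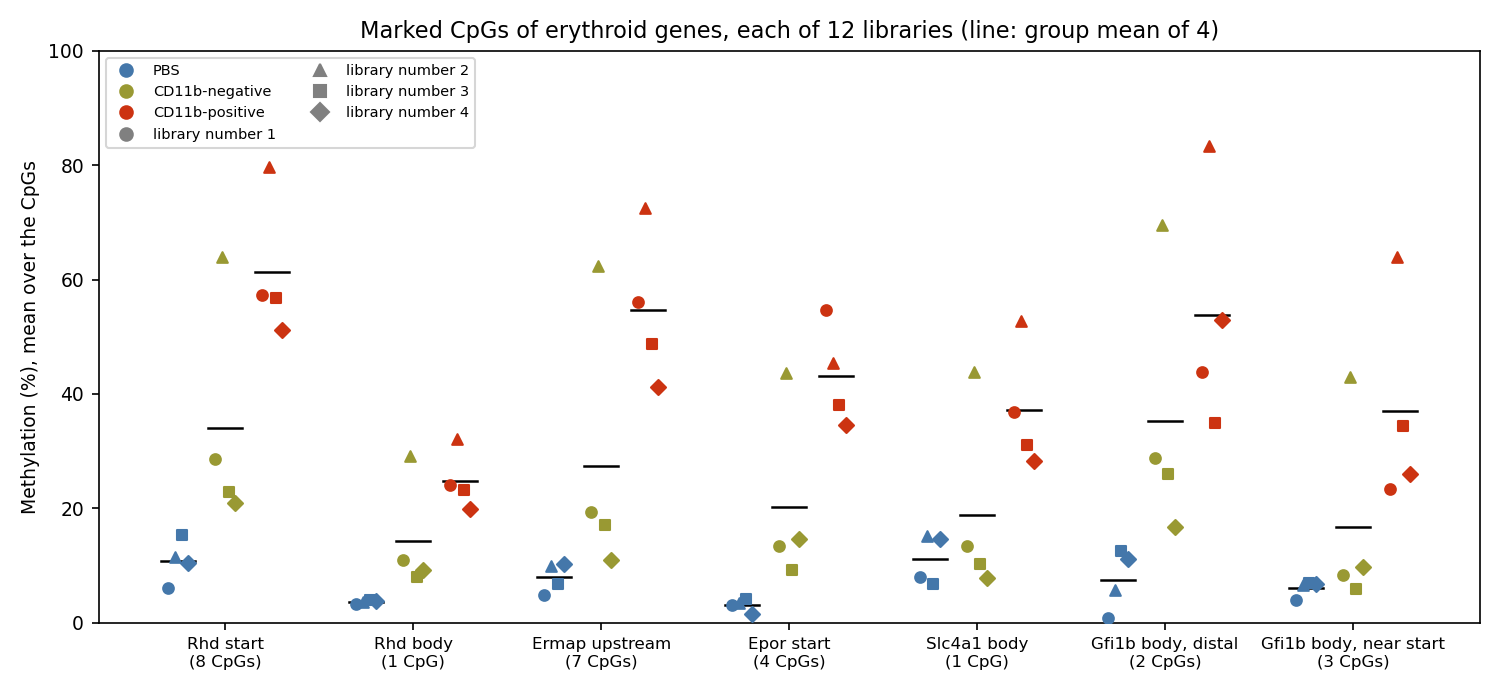
Methylation in percent (vertical axis) of the 7 stretches of marked CpGs (horizontal axis) in each of 12 libraries, with colour for the group, marker shape for the library number and a line at the mean of 4. At the Rhd start the PBS libraries lay between 6.04% and 15.3% and the CD11b-positive libraries between 51.3% and 79.7%, with CD11b-negative 2 at 64.0%, apart from the other CD11b-negative libraries.

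Of the transcription factor genes, Gfi1b was marked at all 5 of its CpGs that were low in PBS. A group of 3 lay 1139 to 1177 bp inside the gene, where the predicted gene Gm52548 is annotated as well. There the PBS libraries measured 4.06%, 6.63%, 6.94% and 6.80%, the CD11b-negative libraries 8.41%, 43.0%, 5.85% and 9.80%, and the CD11b-positive libraries 23.5%, 64.0%, 34.5% and 26.03%. All 4 CD11b-positive libraries were above all 4 PBS libraries, whereas among the CD11b-negative libraries number 2 was high and number 3 lay within the PBS range. The CD11b-negative mean here was 16.8% ± 17.6, and 8.02% ± 2.01 without number 2. The other pair of marked CpGs lay 5011 and 5149 bp inside the gene and averaged 7.56% ± 5.38 in PBS, 35.3% ± 23.4 in CD11b-negative and 53.8% ± 21.1 in CD11b-positive libraries (SD, n = 4 each), with a CD11b-negative mean of 23.8% ± 6.36 without number 2. Depth was 58 to 123 calls per CpG and library in the group of 3 and 24 to 74 in the pair. The 5 remaining CpGs of Gfi1b were already methylated, with a mean over these CpGs of 90.0% in PBS and 94.3% in CD11b-positive libraries.

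Klf1, the master activator of adult globin genes, had 66 of the 73 CpGs in its window low in PBS. Of these, 12 and 15 lay in adjacent 1000 bp tiles inside the gene. A further 24 and 15 lay in adjacent tiles of the flank past the gene's end. The mean of the 66 was 0.518% ± 0.0879 in PBS, 0.914% ± 0.556 in CD11b-negative and 1.42% ± 0.745 in CD11b-positive libraries. The largest gain among these 66 CpGs was 7.04 points. Of the other 7, 2 had a gain of at least 20 points, from a mean of 53.6% ± 3.54 in PBS to 75.98% ± 6.50 in CD11b-positive libraries. Its window also overlaps Dnase2a and the predicted gene Gm39213. Nfe2, a subunit of the NF-E2 factor that binds the globin control region, had 14 of 21 CpGs low in PBS, at 0.965% ± 0.354 in PBS and 1.58% ± 0.886 in CD11b-positive libraries. The other 7 were in 1 tile, which averaged 75.8% ± 2.703 in PBS, 82.8% ± 7.23 in CD11b-negative and 86.2% ± 5.93 in CD11b-positive libraries (SD, n = 4 each), and 1 of them had a gain of 23.99 points, from 56.02% to 80.005%. The Nfe2 window overlaps Hnrnpa1, a gene of RNA processing used in most cells.

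Of the receptor genes, Epor was more methylated at its start in the CD11b-positive libraries than in PBS. The 4 marked CpGs lay from -195 to 97 bp relative to the annotated start. PBS libraries measured 3.08%, 3.51%, 4.15% and 1.51%, CD11b-negative libraries 13.4%, 43.6%, 9.27% and 14.6%, and CD11b-positive libraries 54.6%, 45.4%, 38.0% and 34.6%. Every treated library, CD11b-negative ones included, was above every PBS library here. Without CD11b-negative 2 the CD11b-negative mean was 12.4% ± 2.80 (SD, n = 3) against 20.2% ± 15.8 with it. The depth was thin, with 19 to 70 calls per CpG and library. The other 55 low CpGs of the Epor window, which also overlaps Swsap1 and Gm45914, averaged 0.787% ± 0.322 in PBS and 2.45% ± 1.01 in CD11b-positive libraries.

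Tfrc, the transferrin receptor gene that all dividing cells use for iron, was unmethylated at the CpGs measured. These were 35 of the 216 listed CpGs in its window, and they lie in 2 adjacent tiles of 1000 bp at the start, and the rest of the gene had no common CpG. They had a mean of 0.536% ± 0.0986 in PBS, 0.595% ± 0.0519 in CD11b-negative and 0.631% ± 0.385 in CD11b-positive libraries (SD, n = 4 each). No CpG of Tfrc gained more than 1.62 points.

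Of the membrane genes, Rhd, which encodes the Rh antigen carrier of the red cell surface, had the largest gain of the 7 stretches at its start, 50.4 points. The 8 CpGs from -28 to 198 bp relative to the annotated start measured 6.04%, 11.5%, 15.3% and 10.5% in PBS libraries. The CD11b-negative libraries measured 28.7%, 64.0%, 22.8% and 21.0%, and the CD11b-positive libraries 57.3%, 79.7%, 56.7% and 51.3%. No CD11b-negative library overlapped the PBS range, and number 2 lay inside the CD11b-positive range. The means were 10.8% ± 3.81, 34.1% ± 20.2 and 61.3% ± 12.6 (SD, n = 4 each), and the CD11b-negative mean was 24.2% ± 4.004 without number 2. Depth was 75 to 269 calls per CpG and library. Within this stretch of Rhd, the 4 CpGs from 83 to 198 bp had higher group means than the 4 from -28 to 18 bp, at 10.4% to 17.6% against 6.96% to 8.23% in PBS. In CD11b-positive libraries the Rhd means were 62.6% to 70.8% against 51.9% to 59.8%.

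Further inside Rhd, 4 CpGs about 5 kb from the start were low in PBS, and 1 of them was marked. That CpG averaged 3.65% ± 0.275 in PBS, 14.3% ± 10.01 in CD11b-negative (9.36% ± 1.54 without number 2) and 24.8% ± 5.19 in CD11b-positive libraries, and the other 3 averaged 2.23% ± 0.345, 7.33% ± 4.24 and 12.1% ± 2.56. The remaining CpGs of the Rhd window were not low in PBS.

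Ermap, which encodes an erythroid membrane protein of the butyrophilin family, was marked upstream of its annotated start, at all 7 CpGs measured from -1117 to -714 bp. PBS libraries measured 4.84%, 9.95%, 6.74% and 10.2%, CD11b-negative libraries 19.3%, 62.4%, 17.1% and 10.96%, and CD11b-positive libraries 56.1%, 72.6%, 48.7% and 41.3%. Again CD11b-negative 2 lay inside the CD11b-positive range, and without it the CD11b-negative mean was 15.8% ± 4.32 against 27.5% ± 23.6. The other 24 low CpGs of the window lay in the flank past the gene's end, 15793 to 16319 bp from the start. All but the CpG at 15793 bp lay within Zfp691, which the window also overlaps. These 24 CpGs had a mean of 0.465% ± 0.442 in PBS and 1.36% ± 0.809 in CD11b-positive libraries.

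Slc4a1, which encodes the band 3 anion exchanger, differed from the other membrane genes in that only 1 of its 35 CpGs was low in PBS. That CpG in the gene body was marked, at 11.2% ± 4.41 in PBS, 18.8% ± 16.8 in CD11b-negative (10.5% ± 2.86 without number 2) and 37.2% ± 11.0 in CD11b-positive libraries. A further 14 CpGs had a gain of at least 20 points from intermediate levels, of 20 such CpGs in all 8 genes. These 14 measured 26.3%, 44.0%, 34.0% and 32.8% in PBS, 46.1%, 79.3%, 34.3% and 33.7% in CD11b-negative and 66.9%, 82.5%, 53.4% and 56.1% in CD11b-positive libraries. CD11b-negative 3 and 4 were within the PBS range and CD11b-negative 2 was within the CD11b-positive range.

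**Figure D2:**
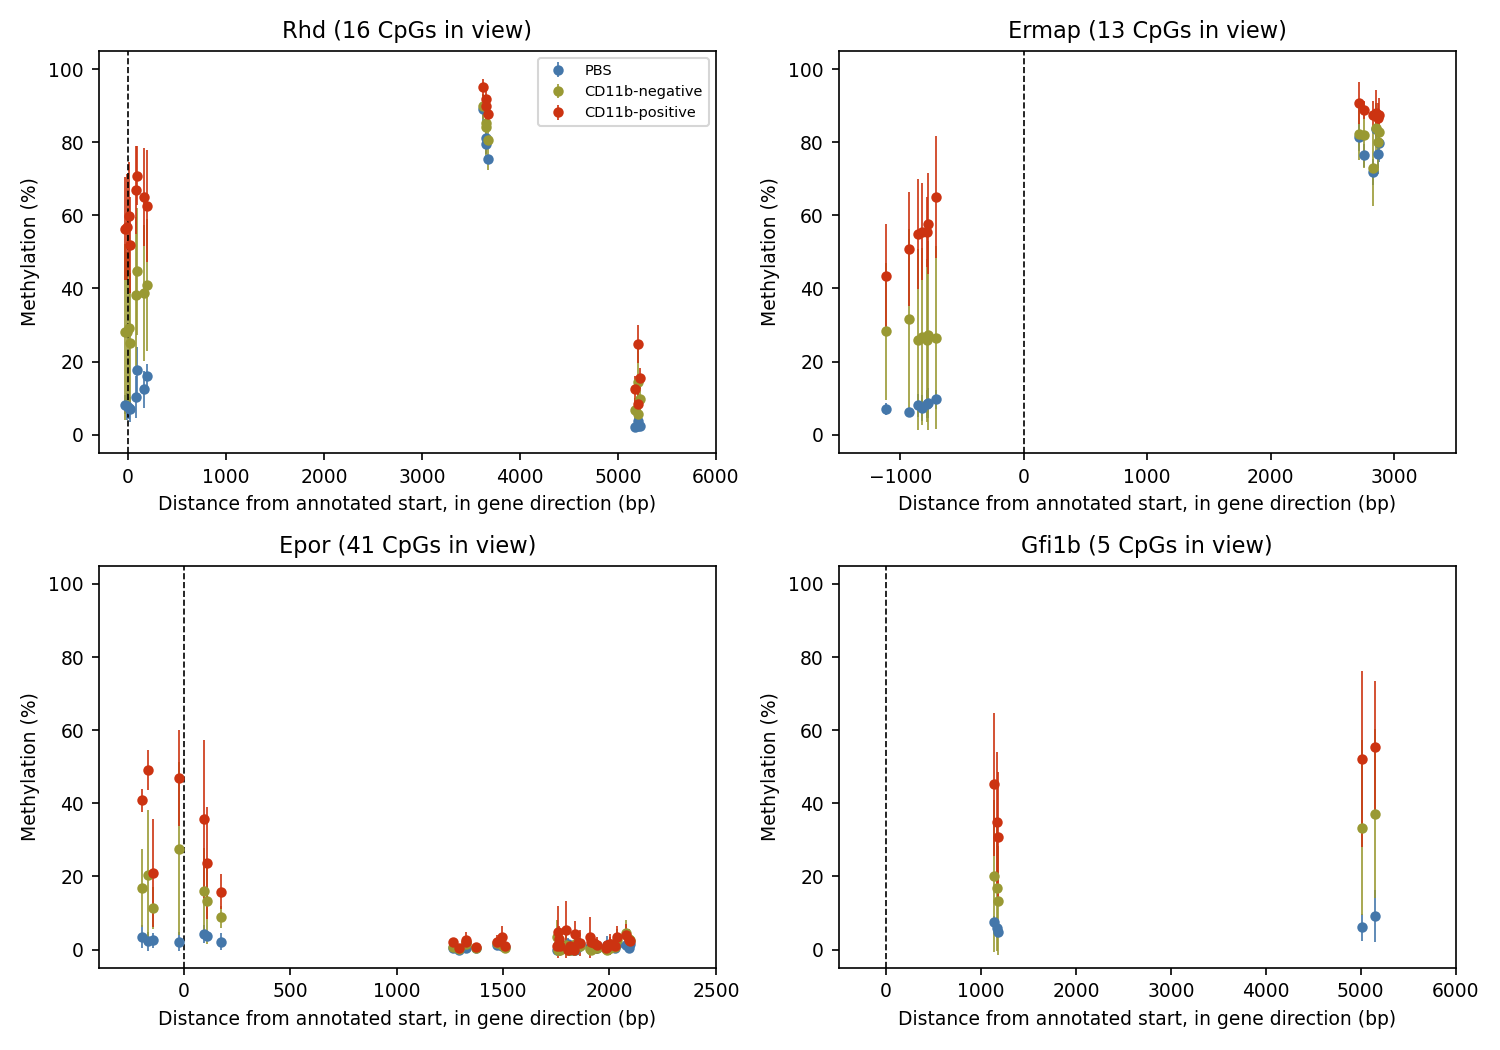
Methylation in percent (vertical axis) against distance from the annotated start in base pairs (horizontal axis, dashed line at the start) at common CpGs of Rhd, Ermap, Epor and Gfi1b, as group means with SD over 4 libraries. The marked CpGs sit around the start in Rhd and Epor, from -1117 to -714 bp in Ermap and inside the gene in Gfi1b.

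The comparison of CD11b-positive with CD11b-negative cells asks how the 2 subsets sorted from treated mice differed. CD11b-positive libraries chose the members and CD11b-negative libraries did not, and the comparison shares libraries with the others. The same-numbered treated libraries deviated together from their group means over the gene windows, but so did libraries numbered 1, 3 and 4 in crossed combinations (r = 0.346 to 0.836), and only number 2 is set apart by that measure. Values within pairs and with the number as a block are given, and beside them a fit with 1 term for number 2 alone, an alternative chosen after seeing the data. At the Rhd start the CD11b-positive library was higher by 28.7, 15.7, 33.9 and 30.3 points in pairs 1 to 4. At Ermap the differences were 36.8, 10.2, 31.6 and 30.3 points, and at the Epor start 41.2, 1.72, 28.8 and 20.01 points. The marked CpGs were chosen for high CD11b-positive values, so the direction in these pairs is not independent of the choice. The difference in pair 2 was the smallest of the 4 at Rhd, Ermap, Epor and the marked CpG of Slc4a1, but not at Gfi1b. In Gfi1b the group of 3 marked CpGs differed by 15.1, 21.0, 28.6 and 16.2 points in pairs 1 to 4. The other 2 marked CpGs of Gfi1b differed by 15.1, 13.9, 8.87 and 36.3 points. In pair 2 the Y shares differed by 0.822 and the mean methylation by 0.431 points, while in the other pairs they differed by 12.01 to 14.9 and by 1.77 to 2.23 points. A link between these differences was not tested. Every CD11b-positive library was above every CD11b-negative library at 7 of the 350 CpGs (2%, against 1.04% of all common CpGs), of which 1 was marked. Without CD11b-negative 2, the library nearest to the CD11b-positive ones, this held at 77 CpGs (22.0%, against 14.4% of all common CpGs).

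**Figure D3:**
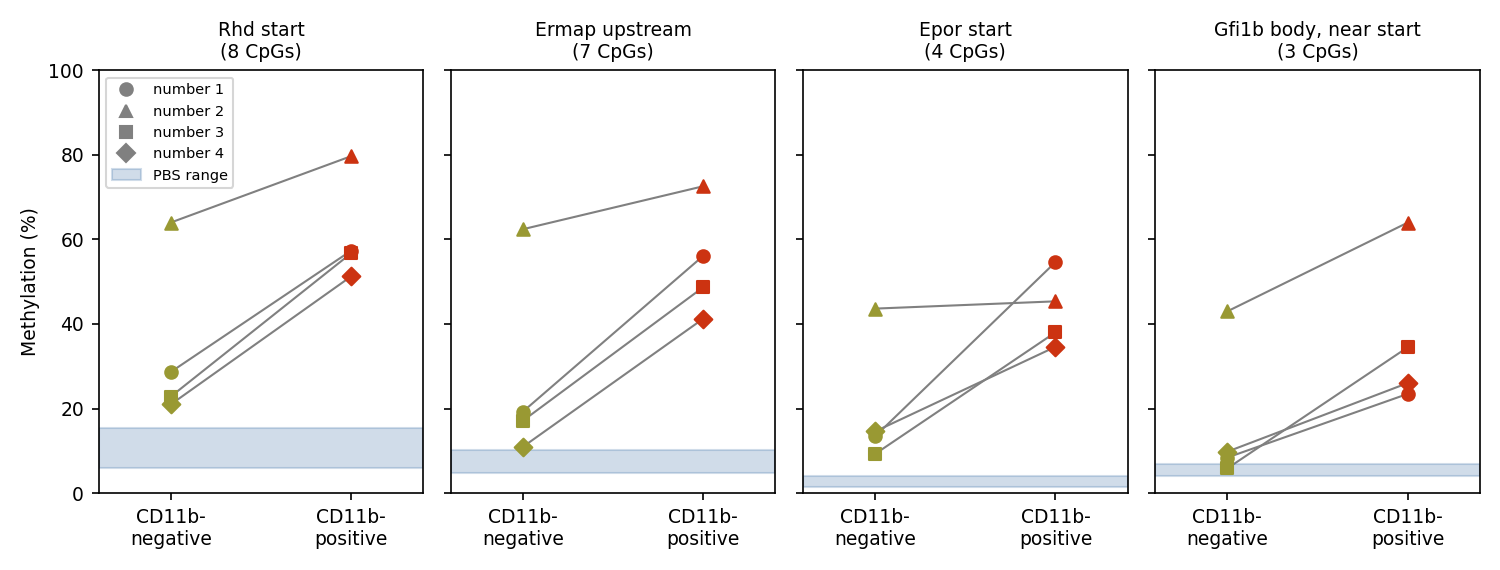
Methylation in percent (vertical axis) of 4 marked stretches in the CD11b-negative and CD11b-positive libraries (horizontal axis), with a line joining libraries of the same number and a band over the range of the 4 PBS libraries. At Epor pair 2 differs by 1.72 points, against 20.01 to 41.2 points in the other pairs.

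A quasi-binomial model was fitted over all 87020 tiles of 1000 bp, with a call needing an adjusted p under 0.05 (Benjamini-Hochberg) and a difference of at least 10 points. Without the block it called no tile for CD11b-positive against CD11b-negative (9474 at an unadjusted p under 0.05), and edgeR's quasi-likelihood test called none either (2971 at an unadjusted p under 0.05). With the block 11.0% of all tiles were called higher (9592 tiles), and 3 of the 32 tiles in the erythroid windows were, a share near the background. These 3 were the tile at the Rhd start (27.1 points, adjusted p = 0.000383), the tile before Ermap (29.2 points, adjusted p = 0.00295) and the tile inside Gfi1b (20.2 points, adjusted p = 0.00799). The Epor start tile differed by 16.9 points and was not called (adjusted p = 0.0764). These tiles at Rhd, Ermap, Gfi1b and Epor hold marked CpGs, which were chosen for high CD11b-positive values. Their differences and p-values, here and in the fits that follow, are therefore not independent of that choice. With 1 term for number 2 in place of the block, 11.6% of all tiles (10130) were called higher and the same 3 of the 32, with adjusted p = 0.00178 at Rhd, 0.00591 at Ermap and 0.00639 at Gfi1b, and 0.0833 at Epor, which was not called. Without CD11b-negative 2, 17.3% of all tiles and 6 of the 32 were called higher, the Epor start tile among them (22.5 points, adjusted p = 0.0241). Without both treated libraries numbered 2 the shares were 17.1% of all tiles and 5 of the 32. With the Y share as a term in place of the block, 5 tiles were called higher (0.00575%), and the Rhd start tile was 1 of them (12.9 points, adjusted p = 0.0494). The Ermap tile then differed by 12.9 points (adjusted p = 0.211) and the Gfi1b tile by 5.85 points (adjusted p = 0.521).

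Over the whole windows of Rhd, Ermap and Gfi1b the treated subsets differed less than in the called tiles. These windows also average CpGs that were not marked, so the smaller difference is not independent of the choice of CpGs. The window means in CD11b-negative and CD11b-positive libraries were 67.8% ± 9.31 and 77.3% ± 5.35 for Rhd, 52.0% ± 3.85 and 55.7% ± 2.03 for Ermap, and 57.8% ± 12.1 and 69.0% ± 10.2 for Gfi1b (SD, n = 4 each). None of the 17323 windows was called (3548 at an unadjusted p under 0.05; edgeR called none, with 2310 at an unadjusted p under 0.05), and the 8 erythroid windows had adjusted p from 0.242 to 0.937. With the block 0.202% of windows were called higher and no erythroid window was, Rhd having an adjusted p of 0.0549. With 1 term for number 2 in its place 2.83% were called higher and 1 of the 8 was, Gfi1b by 11.2 points (adjusted p = 0.0338). Without CD11b-negative 2, 8.73% of windows were called higher, and so were 3 of the 8, Rhd by 14.1 points (adjusted p = 0.0106), Slc4a1 by 14.3 points (adjusted p = 0.0222) and Gfi1b by 17.2 points (adjusted p = 0.0231). Without both treated libraries numbered 2 it was 6.07% of windows and the same 3 genes. With the Y share as a term no window was called. The windows of Ermap, Epor, Nfe2, Klf1 and Tfrc were not called in any of these fits.

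CD11b-negative cells were next compared with PBS cells, that is, treated cells without the marker with untreated cells not divided by it. PBS libraries entered the choice of members, so its direction at CpGs low in PBS is not independent of that choice. CD11b-negative libraries were all above all PBS libraries at 29 of the 350 CpGs (8.29%, against 3.25% of all common CpGs), of which 15 were marked. No window was called (895 at an unadjusted p under 0.05; edgeR 0 and 759), and no tile (8634; edgeR 0 and 5663). At the Rhd start tile the difference was 23.3 points (adjusted p = 0.487), and 13.3 points without CD11b-negative 2 (adjusted p = 0.139). Over the 3 remaining CD11b-negative libraries the Y share was 10.4 ± 1.98, against 10.5 ± 5.52 in PBS. A smaller difference was past the p threshold without CD11b-negative 2 in the tile about 5 kb inside Rhd, at 3.68 points (adjusted p = 0.00613), below the size a call needs.

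The comparison of CD11b-positive with PBS is the one that chose the genes, and its values are a description. Window means in PBS and CD11b-positive libraries were 60.2% ± 1.63 and 77.3% ± 5.35 for Rhd, 46.1% ± 4.80 and 63.7% ± 7.59 for Slc4a1, and 48.3% ± 1.77 and 69.0% ± 10.2 for Gfi1b. They were 49.1% ± 0.987 and 55.7% ± 2.03 for Ermap, 2.38% ± 0.356 and 6.62% ± 1.15 for Epor, 25.9% ± 0.915 and 29.8% ± 2.09 for Nfe2, and 8.22% ± 0.191 and 9.98% ± 0.835 for Klf1. The Rhd, Slc4a1 and Gfi1b windows met the call rule, as did 14.3% of all windows (higher), and 7 of the 32 tiles did beside 32.3% of all tiles. With the Y share as a term no window met it, and 1 of the 32 tiles did, at the Rhd start, beside 0.0862% of all tiles. Every CD11b-positive library was above every PBS library at 83 of the 350 CpGs (23.7%, against 17.6% of all common CpGs), among them the 26 marked ones.

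The marked CpGs shared a sparse setting that the rule did not use. The median number of listed CpGs within 250 bp on each side was 8 at marked CpGs (range 4 to 16) and 30 at the 197 CpGs that were low and unmarked (range 5 to 53). Over all common CpGs the medians were 8 at marked CpGs and 40 at low unmarked CpGs, so the erythroid genes shared this with the rest of the genome. The low CpGs of the windows with no marked CpG had medians of 49 for Tfrc, 28.5 for Klf1 and 16.5 for Nfe2. Those of the Klf1 window include CpGs of the flank past the gene's end, and the Klf1 promoter sequence held no measured CpG. The low unmarked CpGs averaged at most 2.13% in any library.

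**Figure D4:**
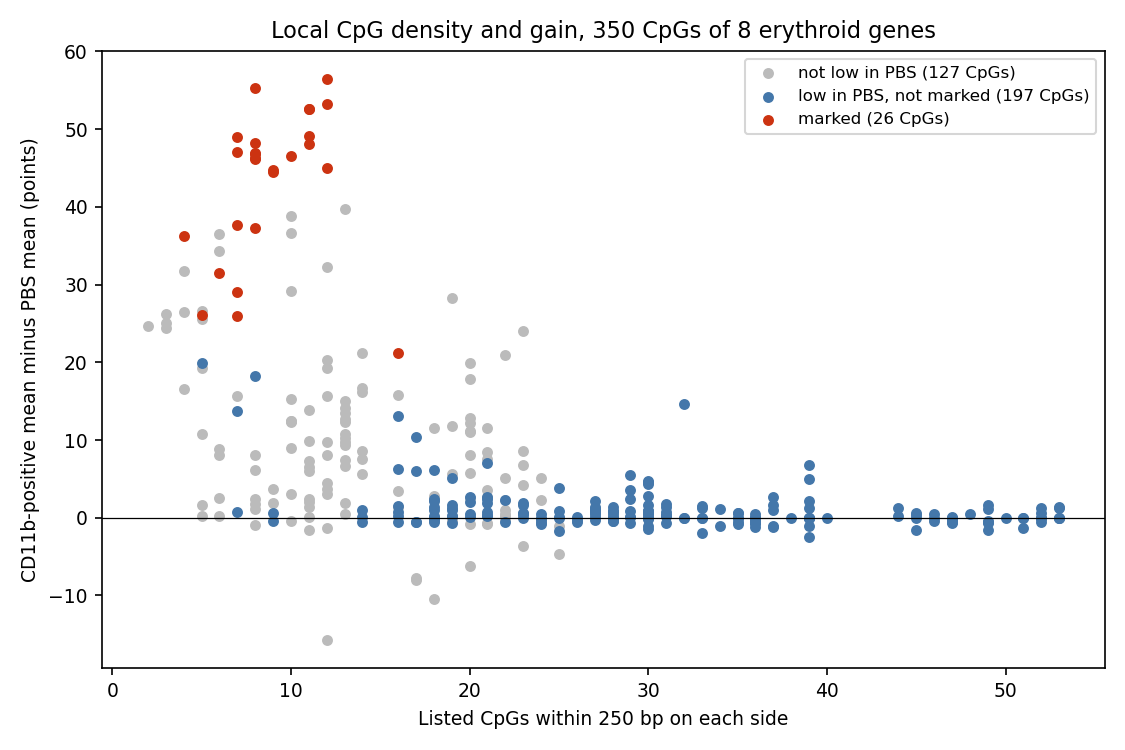
Difference of the CD11b-positive and PBS means in percentage points (vertical axis) against the number of listed CpGs within 250 bp on each side (horizontal axis) for the 350 CpGs, coloured by class. The 26 marked CpGs all have 16 or fewer listed neighbours, and the dense CpGs on the right lie close to 0.

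Motif letters of red cell factors were searched on both strands of the RefSeq promoters, which were found for 7 of the 9 genes (8 entries, Tfrc having 2). GATAA, the core bound by GATA factors, was in the promoters of Rhd, Ermap, Epor, Klf1, Gfi1b and Rhag, that is in 6 of 8 entries, beside 25.4% of 32851 promoters in that table. Counting the start as 0, its first base was at -42 in Rhd on the gene's strand and at -54 in Epor on the other strand, and the marked CpGs nearest to the Rhd match began at -28. No GATAA match overlapped another motif searched. CACCC, the core bound by Klf factors, was in 8 of 8 entries and 57.5% of all, the E-box CANNTG in 5 of 8 and 72.3%, and a full site of Nfe2 in 0 of 8 and 0.155%. Nfe2 and Slc4a1 are not in that table.

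Other genes of red cell formation were taken from lists, chosen with earlier results known. None of the windows in the lists of erythroid transcription factors (13 measured of 13), red cell membrane (17 of 19), haem and globin (13 of 20), iron handling (10 of 10), erythropoietin signalling (10 of 10) and megakaryocyte genes (11 of 12) was called in either direction for CD11b-negative against PBS or CD11b-positive against CD11b-negative. Nor was any of all 17323 windows, so the lists do not differ from the rest in this. For CD11b-positive minus CD11b-negative the medians were 0.693, 1.88, 1.195, 0.701, 1.38 and 1.02 points in that order, beside 0.944 over all windows and 3.07 over the 8 erythroid windows. Without CD11b-negative 2 they were 1.197, 3.13, 1.80, 1.02, 1.88 and 2.84 points, beside 1.51 over all windows and 4.40 over the 8. For CD11b-negative minus PBS they were 0.764, 1.36, 0.605, 0.485, 1.44 and 2.87 points, beside 0.948 over all windows and 2.74 over the 8. Without CD11b-negative 2 these medians were 0.272, 0.347, -0.0417, 0.30003, 0.187 and 0.398 points, beside 0.384 over all windows and 1.21 over the 8. Without CD11b-negative 2, 1, 2, 1, 0, 1 and 0 of them were called higher in CD11b-positive than in CD11b-negative libraries and none lower, that is 5 of 74, beside 8.73% of all windows called higher (1513) and 502 called lower. The higher medians of the 8 erythroid windows were not seen over tiles. For CD11b-positive minus CD11b-negative the median was 1.99 points over the 32 erythroid tiles and 2.22 over all tiles. Without CD11b-negative 2 these were 3.55 and 3.46 points. For CD11b-negative minus PBS they were 1.73 and 2.53 points, and 0.440 and 0.965 points without CD11b-negative 2.

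The list members with the largest difference of CD11b-positive from PBS are given as values. Gata1, the central erythroid activator, averaged 59.5% ± 1.18 in PBS, 65.7% ± 9.56 in CD11b-negative and 72.0% ± 5.43 in CD11b-positive libraries (SD, n = 4 each here and below). Cish, a feedback inhibitor of erythropoietin signalling, averaged 17.96% ± 6.51, 29.6% ± 19.5 and 43.1% ± 10.1, and the water channel gene Aqp1 67.1% ± 1.94, 72.7% ± 11.4 and 82.3% ± 8.34. Ppox, an enzyme of haem synthesis, averaged 40.3% ± 3.11, 45.5% ± 13.2 and 51.2% ± 8.07. Steap3, an iron reductase, averaged 30.9% ± 0.734, 33.9% ± 3.24 and 37.2% ± 1.78. Gp6, the platelet collagen receptor gene, averaged 53.0% ± 2.92, 67.8% ± 18.9 and 80.4% ± 11.4.

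Marker genes of other cells in a spleen, averaged over each list, also had higher group means in both treated groups than in PBS. The range of the CD11b-negative libraries overlapped that of the PBS libraries in each of these lists. The mean methylation over the 10 measured of 12 monocyte and macrophage markers ran from 38.6% to 41.4% in PBS, 40.2% to 52.0% in CD11b-negative and 45.9% to 51.8% in CD11b-positive libraries. Over all 11 T cell markers the ranges were 31.6% to 34.8%, 32.7% to 42.5% and 39.0% to 43.0%, and over all 9 B cell markers 33.6% to 36.02%, 34.96% to 45.9% and 39.8% to 47.2%. They were 38.7% to 43.7%, 41.1% to 64.9% and 45.1% to 59.3% over 6 of 9 neutrophil markers, and 45.8% to 49.9%, 49.4% to 66.8% and 58.3% to 67.3% over all 7 endothelial markers. None of these markers, and none of all 17323 windows, was called for CD11b-negative against PBS or CD11b-positive against CD11b-negative. Without CD11b-negative 2 the latter called 4 monocyte and macrophage, 5 T cell, 2 B cell, 2 neutrophil and 3 endothelial markers higher, and 1 monocyte and macrophage and 1 T cell marker lower, beside 8.73% of all windows called higher (1513) and 502 called lower. Their largest differences of CD11b-positive from PBS were in Cd14 (44.7% to 67.0%), Cd8a (46.4% to 68.2%), Blk (43.5% to 61.8%), Elane (32.6% to 47.8%) and Tie1 (34.2% to 58.8%), as group means. The part of other cells in the values of the erythroid genes was not tested.

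The gene windows whose pattern was most like that of the erythroid genes over the 12 libraries were Sox5 (Pearson r = 0.997), Ccl17 (0.997), Krt80 (0.996), Stx8 (0.995) and Dhrs2 (0.995), of 3222 windows that ranged over at least 20 points. The measure is the correlation with the mean of the 8 standardised window values. All windows also share the depth and mean methylation level of each library, and both differed between libraries. Sox5 averaged 45.2% ± 1.97 in PBS, 54.0% ± 10.8 in CD11b-negative and 62.2% ± 7.12 in CD11b-positive libraries.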

How the data were processed

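Reduced representation bisulfite sequencing gave 12 libraries, 4 in each of 3 groups assigned from the sample titles. The deposited files hold raw counts made by the authors, with methylated and unmethylated calls listed separately for every covered CpG on either strand. The submitters' processing notes list Bismark, methylKit 1.20.0, cutadapt 2.7 and Trim Galore 0.6.4, and the mm10 build. Duplicate removal is not given in the sources used here, so one molecule may have been counted repeatedly.

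Calls of both strands were summed, and CpGs with at least 10 calls in all 12 libraries were kept. Genes came from a RefSeq table of GRCm38.p6. Methylation of a window, tile or stretch is the mean over its CpGs. Windows and 1000 bp tiles with at least 3 CpGs were tested with an F test in a quasi-binomial logistic regression of the 2 kinds of call, on the 8 libraries compared. Dispersions were shrunk as limma's squeezeVar does, separately in classes split at methylation levels of 5%, 20%, 80% and 95%, and held at 1 or more. Alternative fits are in the closing section, and counts from edgeR 4.0.16 are in the Results for both comparisons that include CD11b-negative cells. For CD11b-positive against PBS, edgeR called 3089 windows (17.8%) and 30512 tiles (35.1%). Python 3.11.15, numpy 2.4.6, scipy 1.17.1, R 4.3.3 and limma 3.58.1 were used. On simulated data over 17323 windows, the CD11b-positive against CD11b-negative test found 59 of 100 windows shifted by 15 points and 99 of 100 shifted by 30 points, with 4 false calls. The CD11b-negative against PBS test found 99 and 100 of 100, with 0 false calls. Each simulation took the spread between libraries from the reference group alone and used it for both groups. That group was PBS in the CD11b-negative against PBS test. The real CD11b-negative libraries varied more, with an SD of mean methylation of 1.59 against 0.292 in PBS. These recovery counts therefore do not give the power in the real libraries.

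The members and lists were chosen with earlier results of these data known. Named genes were all 9 members, from each of 11 lists the called window with the largest gain and loss or otherwise the measured gene with the largest difference of CD11b-positive from PBS, the 5 windows most like the members, and called tiles within member windows. Same-numbered CD11b-negative and CD11b-positive libraries deviated together from their group means over the gene windows (r = 0.264, 0.966, 0.802 and 0.821 for numbers 1 to 4), and the number was used as a block because each r was over 0.1. Crossed combinations of numbers 1, 3 and 4 gave r from 0.346 to 0.836 and those of number 2 with another from -0.928 to -0.369, so the correlations single out number 2 only, and the labels do not say what a number marks. With PBS, same-numbered r was 0.583, 0.865, 0.560 and -0.205 for CD11b-negative and 0.287, 0.833, 0.454 and -0.179 for CD11b-positive, and PBS was not paired because of number 4. Distances are those of the plus-strand cytosine.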

Additional observations from a re-analysis of the deposited data

Results flagged for a closer look

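A library far from the other 3 of its group was looked for in 51 groups of 4 values (stretches, windows, Y share and mean methylation), and 15 were found, where chance alone flags about 1 group in 20. The 51 groups are not independent. CD11b-negative 2 accounts for 11. It was above the other CD11b-negative libraries at the marked CpGs of Ermap (62.4%, the others 10.96% to 19.3%), Epor (43.6%, the others 9.27% to 14.6%), Slc4a1 (43.9%, the others 7.78% to 13.5%), the body of Rhd (29.2%, the others 7.93% to 10.99%) and Gfi1b near its start (43.0%, the others 5.85% to 9.80%). It was also above them over the windows of Gfi1b (75.9%, the others 51.5% to 52.2%), Ermap (57.8%, the others 49.6% to 50.6%), Nfe2 (32%, the others 27.1% to 27.7%) and Klf1 (10.9%, the others 8.34% to 8.72%).

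The same library stood apart in Y share (39.2, the others 8.28 to 12.2) and in mean methylation (35.5%, the others 32.1% to 32.5%). CD11b-positive 2 stood apart over the Gfi1b window (84.3%, the others at 63.9%), in Y share (40.0, the others 23.2 to 24.2) and in mean methylation (35.9%, the others 34.2% to 34.5%). PBS 1 was below the other PBS libraries at the marked CpGs near the start of Gfi1b (4.06%, the others 6.63% to 6.94%).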

How the results depend on the processing

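The number of marked CpGs stayed within 1.5 times of 26 under every coverage minimum, threshold, flank and left-out library run. For CD11b-positive against CD11b-negative, 0 windows were called, and 95 with the replicate block, 0 to 2015 over the left-out libraries (2015 without CD11b-negative 2) 1410 without both treated libraries numbered 2 and 675 with a term for number 2 alone, both alternatives chosen after seeing the data. For tiles the count was 0, and 11206 with the replicate block, 12 with all 12 libraries in 1 fit, 22 with the Y share as a term, 0 to 17319 over the left-out libraries (17319 without CD11b-negative 2) 17108 without both and 11686 with a term for number 2 alone. For CD11b-negative against PBS, 0 windows were called, and 0 to 1 over the left-out libraries (1 without CD11b-negative 3); 0 tiles were called, and 78 with the Y share, 0 to 3 over the left-out libraries (3 without CD11b-negative 2) and 3 without both. For CD11b-positive against PBS, 3078 windows were called, and 5299 at 5 points or more, 977 at 20 points or more, 2034 with all 12 libraries and 0 with the Y share; 31319 tiles were called, and 13789 at 20 points or more and 93 with the Y share. The replicate block in comparisons with PBS, where numbers do not pair the libraries, gave 3015 windows for CD11b-positive and 0 for CD11b-negative. The Y share of CD11b-negative minus PBS ran from -0.0792 to 10.2 over the left-out libraries (-0.0792 without CD11b-negative 2, exact permutation, adjusted p = 0.971), and that of CD11b-positive minus CD11b-negative from 5.94 to 17.2 (17.2 without CD11b-negative 2, adjusted p = 0.0429).

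Signs turned for single windows that were not called. Depth-weighted methylation gave -0.853 for Nfe2 and -0.0857 for Klf1 in CD11b-negative minus PBS, and -0.013 for Tfrc in CD11b-positive minus CD11b-negative. With the Y share, CD11b-positive minus CD11b-negative was -0.553 for Nfe2, -0.888 for Slc4a1 and -0.0577 for Tfrc, and CD11b-positive minus PBS was -0.333 for Tfrc. Over the left-out libraries, Tfrc in CD11b-positive ran from -0.106 to 0.204 against CD11b-negative and from -0.0473 to 0.263 against PBS, lowest without CD11b-positive 2. It was -0.0937 and -0.0473 without both treated libraries numbered 2. The cause of these changes was not tested. Some marked CpGs were shallow, with as few as 19 calls in a library at Epor and 24 at Gfi1b, and intervals from calls would cover counting error only.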
